A study of Mus musculus with 6 samples.

Results

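The genes described here are 7 transcription factors and cofactors that act in red cell formation: Gata1, Klf1, Gfi1b, Zfpm1, Nfe2, Myb and Bcl11a. They were taken by symbol, and all 7 matched a probe set with 1 gene, so that they are 7 of 22180 genes measured. Their levels were compared between haematopoietic stem cells of C57BL/6J mice that were sorted as CCR2+ HSC and as CCR2- HSC, called CCR2-positive and CCR2-negative below. Each of the 6 samples was a pool of marrow from 20 mice, with 3 pools per group, and 5 ng of RNA per pool was amplified before the array. Neither group carries a transgene or a treatment in the labels, and the sources used here do not give the age of the mice or the other surface markers of the sort. A value is the log2 array signal after RMA, a standard normalization of arrays, so 1 unit is a doubling, and a difference is the CCR2-positive mean minus the CCR2-negative mean with its standard error.

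Red cell formation is run by a small set of DNA-binding proteins that switch each other on and then switch on the genes of the red cell. GATA1 is the zinc finger protein at the centre of this set, and ZFPM1, also called FOG1, binds to it and carries it to many of its sites. KLF1 binds CACCC boxes and drives genes of the red cell membrane, heme synthesis and adult globin, while GFI1B is a repressor that red cells and megakaryocytes cannot do without. NFE2 pairs with small MAF proteins and is needed above all for platelet release. MYB keeps progenitors dividing, and BCL11A silences fetal globin genes and also serves B cells and stem cells. Stem cells hold low or partial levels of several of these factors, and their rise accompanies the step to megakaryocyte and erythroid progenitors.

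The factors bind short DNA words, and the starts of genes with larger differences between the groups are shown here because they hold such words. RefSeq promoter windows (GRCm38.p6) were found for 6 of the 7 members, all but Nfe2. The 250 bases before the start are printed 5′ to 3′ on the strand of the gene, with GATA words (AGATAA, the same with T as its first letter, with G as its last, or with both) and CACCC-type words (CCACACCC, CCACGCCC, CCCCACCC or CCCCGCCC) of either strand in capitals. The last of these words is also the core of a GC box, which other proteins bind. The windows are chr8:84901732-84901981 on the + strand for Klf1, chr2:28621983-28622232 on the - strand for Gfi1b, chrX:7967911-7968160 on the - strand for Gata1 and chr17:40810899-40811148 on the + strand for Rhag, the red cell membrane gene described below.
Klf1: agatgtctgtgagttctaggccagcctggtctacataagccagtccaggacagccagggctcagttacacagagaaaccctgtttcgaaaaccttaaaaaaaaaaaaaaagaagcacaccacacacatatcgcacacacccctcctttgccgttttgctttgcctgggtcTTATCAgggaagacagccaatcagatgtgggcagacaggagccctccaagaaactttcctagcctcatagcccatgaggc
Gfi1b: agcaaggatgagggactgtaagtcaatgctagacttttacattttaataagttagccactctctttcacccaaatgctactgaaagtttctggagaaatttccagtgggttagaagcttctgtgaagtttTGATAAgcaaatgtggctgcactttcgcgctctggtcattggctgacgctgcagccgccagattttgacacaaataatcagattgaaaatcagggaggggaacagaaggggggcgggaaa
Gata1: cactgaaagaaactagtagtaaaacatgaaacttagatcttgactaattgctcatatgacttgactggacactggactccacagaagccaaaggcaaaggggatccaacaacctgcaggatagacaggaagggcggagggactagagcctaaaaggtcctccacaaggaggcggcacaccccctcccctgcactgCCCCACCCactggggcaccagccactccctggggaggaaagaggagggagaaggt
Rhag: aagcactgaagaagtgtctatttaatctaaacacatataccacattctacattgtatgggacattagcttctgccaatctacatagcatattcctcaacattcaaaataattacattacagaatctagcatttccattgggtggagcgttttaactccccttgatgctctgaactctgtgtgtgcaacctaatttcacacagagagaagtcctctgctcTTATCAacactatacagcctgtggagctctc
In Klf1 the word TGATAA lies on the opposite strand, from 80 to 75 bases before the start, and in Gfi1b it lies on the gene's strand from 120 to 115 bases before it. The Gata1 window holds no GATA word and 1 CACCC-type word, CCCCACCC, 55 to 48 bases before the start. Rhag holds TGATAA on the opposite strand, 31 to 26 bases before the start. Among the 6 member windows 2 held a GATA word (33.3%), against 26.5% of all 32851 windows of this length. A CACCC-type word was in 4 of the 6 (66.7%), against 27.4% of all windows, and 6 of the 8 single matches in Zfpm1, Myb and Bcl11a were the GC-box form CCCCGCCC. A match is a string of letters and shows no binding in these cells.

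Klf1, Gata1 and Gfi1b were higher in the CCR2-positive pools, Nfe2 was lower, and Zfpm1, Myb and Bcl11a differed by less. After adjustment over all genes none of the 7 passed limma's threshold of 0.05, nor did any of the 22180 genes (0% called, with 0.177 as the smallest adjusted p). Klf1 and Gfi1b were higher at an unadjusted p under 0.05, where 5.63% of all genes (1249) were, and Nfe2 was lower, where 6.61% (1467) were. For 1 member, Klf1, the groups stood clear of each other, against 10.8% of all genes that were higher without overlap and 7.88% that were lower. The median of the 7 differences was 0.15, against 0.03 over all genes, and 5 of the 7 were above 0, against 56% of all genes. With the median centring of arrays 4 of 7 were above 0. The counts at an unadjusted p under 0.05 were 3 higher and 0 lower with a second quantile normalization and with cyclic loess, where Gata1 joined and Nfe2 dropped out. They were 1 higher and 1 lower with median centring, where Gfi1b dropped out. Over all 22180 genes the counts moved too. They were 1463 higher and 1227 lower with a second quantile normalization, 1136 and 1456 with cyclic loess, and 1027 and 1621 with median centring.

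Klf1, which encodes the CACCC-binding activator of red cell genes, had the largest difference of the 7. It stood at 8.11, 9.02 and 8.83 in CCR2-negative replicates 1 to 3 and at 9.27, 9.68 and 9.16 in the CCR2-positive ones. All CCR2-positive pools lay above all CCR2-negative pools, and the spread in the CCR2-negative group came mainly from its low replicate 1. The group means were 9.37 ± 0.27 (SD, n = 3) and 8.65 ± 0.48 (SD, n = 3), a 1.65-fold difference. The difference was 0.72 ± 0.24 with a 95% interval of 0.18 to 1.26 (unadjusted limma p of 0.0149, adjusted p = 0.292). Without CCR2-negative replicate 1 it was 0.45 (unadjusted limma p of 0.0361), and without CCR2-positive replicate 2 it was 0.57 (unadjusted limma p of 0.0547).

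Gata1, the master regulator of the set, showed the same order of pools within each group. Its values were 8.19, 8.78 and 8.69 in the CCR2-negative and 8.97, 9.32 and 8.68 in the CCR2-positive pools. CCR2-positive replicate 3 lay below CCR2-negative replicates 2 and 3, so the groups overlapped. The means were 8.99 ± 0.32 (SD, n = 3) and 8.55 ± 0.32 (SD, n = 3), and the 0.44 ± 0.20 between them came with a 95% interval of -0.02 to 0.90 (unadjusted limma p of 0.0600, adjusted p = 0.424). It was 0.26 without CCR2-negative replicate 1, 0.27 without CCR2-positive replicate 2 and 0.59 without CCR2-positive replicate 3, with unadjusted limma p-values of 0.220, 0.204 and 0.0189. Without CCR2-negative replicate 2 it was 0.55 (unadjusted limma p of 0.0407), and with a second quantile normalization and cyclic loess the unadjusted limma p was 0.0254 and 0.0246. Across the 6 arrays Gata1 and Klf1 ran in parallel (r = 0.96, given as a description since the arrays share the group difference), and so did their deviations from the group means (r = 0.95).

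Zfpm1, the GATA1 partner, differed by 0.15 ± 0.11 (95% interval -0.09 to 0.39, unadjusted limma p of 0.189, adjusted p = 0.594). Its CCR2-negative pools were nearly alike at 8.43, 8.40 and 8.40, and its CCR2-positive pools were at 8.69, 8.57 and 8.43. CCR2-positive replicates 1 and 2 lay above all CCR2-negative pools, while replicate 3 lay just below CCR2-negative replicate 1. Without CCR2-positive replicate 1 the difference was 0.09, and without CCR2-positive replicate 3 it was 0.22.

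Gfi1b, the repressor, was 1.25-fold higher, at 10.02, 9.79 and 9.70 in the CCR2-negative and 10.19, 10.31 and 9.98 in the CCR2-positive pools. The groups overlapped at CCR2-positive replicate 3 and CCR2-negative replicate 1. The 95% interval around its difference of 0.32 ± 0.13 was 0.02 to 0.62 (unadjusted limma p of 0.0370, adjusted p = 0.373). CCR2-negative replicate 1, the pool with the lowest Klf1 and Gata1, had the highest Gfi1b of its group. In the CCR2-positive group the order of pools was that of Klf1. The deviations of Gfi1b and Klf1 from their group means had an r of -0.24 over the 6 arrays, given as a description. The unadjusted limma p was 0.0153 to 0.129 as each pool was left out, with differences of 0.25 to 0.41.

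Nfe2, the partner of the small MAF proteins, ran the other way. It stood at 6.87, 6.93 and 6.68 in the CCR2-negative pools and at 6.48, 6.25 and 6.72 in the CCR2-positive ones. CCR2-positive replicates 1 and 2 lay below every CCR2-negative pool, and replicate 3 lay above CCR2-negative replicate 3. The means were 6.48 ± 0.24 (SD, n = 3) and 6.83 ± 0.13 (SD, n = 3), so Nfe2 was 1.27-fold lower. The difference of -0.35 ± 0.14 spanned -0.67 to -0.02 at 95% confidence (unadjusted limma p of 0.0379, adjusted p = 0.377). It was -0.23 without CCR2-positive replicate 2 and -0.46 without CCR2-positive replicate 3, and it stayed below 0 under the 3 other scalings of the arrays that were tried. Its unadjusted limma p was 0.0830 with a second quantile normalization, 0.0575 with cyclic loess and 0.0268 with median centring, and it was above 0.05 without 4 of the 6 pools (0.129 without CCR2-positive replicate 2).

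Myb and Bcl11a, the members with wide roles in progenitors, differed by less than their standard errors. Myb stood at 10.97, 10.96 and 11.05 in the CCR2-negative and 10.96, 11.13 and 10.80 in the CCR2-positive pools. Its CCR2-negative pools lay inside the span of the CCR2-positive ones. The difference was -0.03 ± 0.11, with a 95% interval of -0.29 to 0.23 (limma adjusted p = 0.931), and it turned to 0.050 without CCR2-positive replicate 3. Bcl11a stood at 9.43, 9.15 and 9.30 in the CCR2-negative and 9.33, 9.56 and 9.07 in the CCR2-positive pools, where the highest and the lowest of all 6 values were found. The difference was 0.02 ± 0.14 (95% interval -0.31 to 0.35, limma adjusted p = 0.963), and it turned to -0.0015 with median centring. With a pool left out it ran from -0.10 without CCR2-positive replicate 2 to 0.15 without CCR2-positive replicate 3. Both genes had a second probe set, which differed by -0.01 ± 0.10 for Myb and 0.01 ± 0.20 for Bcl11a. The intervals leave room for a change of up to about 0.3 in either direction, so equal levels are not shown.

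**Figure D1:**
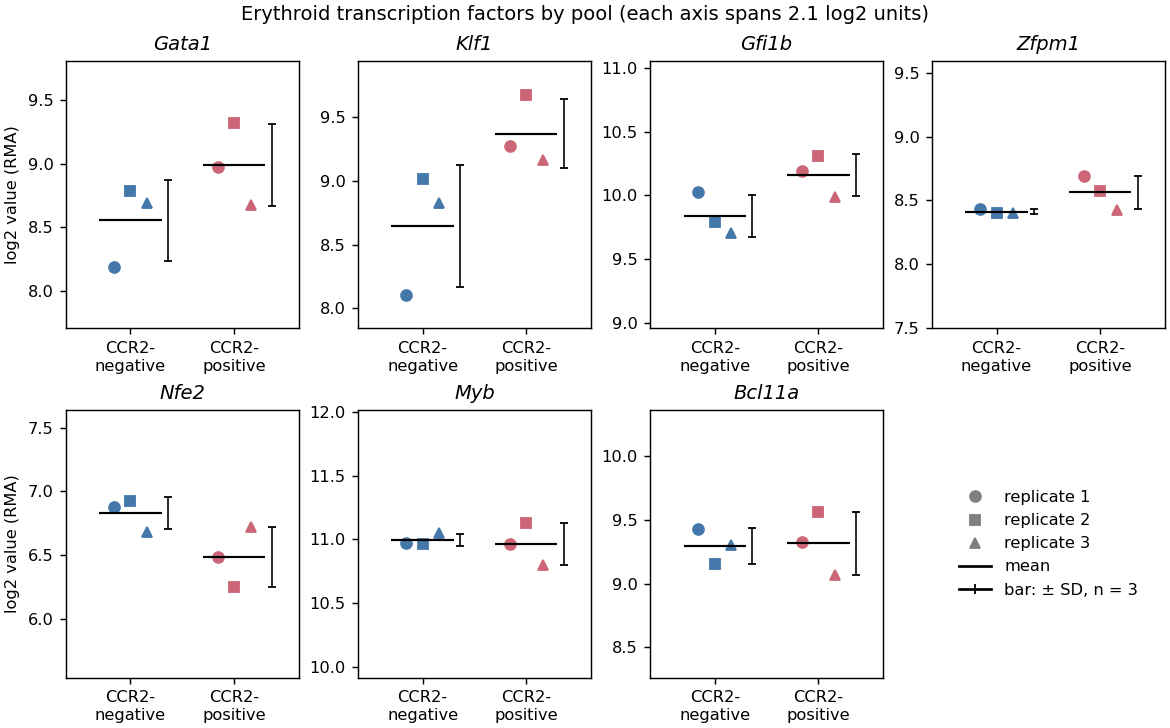
Log2 values of the 7 members in each pool, with CCR2-negative pools in blue and CCR2-positive pools in red, the symbols marking replicates 1 to 3, the line the mean and the bar the SD (n = 3). Klf1 is the member whose groups do not overlap, CCR2-negative replicate 1 is the low point of Gata1 and Klf1, and Nfe2 is lower in CCR2-positive replicates 1 and 2.

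Each member belongs to a family of related genes, whose values were mixed. Gata2, the GATA factor of stem cells that GATA1 replaces as red cells form, was at 9.42, 8.99 and 8.87 in the CCR2-negative and 8.97, 8.68 and 8.90 in the CCR2-positive pools. CCR2-negative replicate 1 was its high point, and the difference was -0.24 ± 0.16 (limma adjusted p = 0.563). It was -0.08 without that pool. Gata3, known from T cells and also present in stem cells, was lower without overlap, at -0.32 ± 0.10 (limma adjusted p = 0.282). Klf3, a repressor that KLF1 switches on and that competes for its sites, was higher in every CCR2-positive pool, at 8.27, 8.72 and 8.26 against 7.68, 7.90 and 7.94. Its difference of 0.57 ± 0.15 was next in size to that of Klf1 in this family (limma adjusted p = 0.229). Klf2, Klf4, Klf6 and Klf13 differed by 0.20 ± 0.16, 0.19 ± 0.14, -0.13 ± 0.12 and 0.05 ± 0.13.

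Gfi1, the myeloid and lymphoid relative of Gfi1b, was higher by the same amount, 0.32 ± 0.13 (limma adjusted p = 0.380), and without overlap of its pools. Its low values, 5.70, 5.67 and 5.55 against 5.75, 5.93 and 6.21, were highest in CCR2-positive replicate 3, where Gfi1b was lowest of its group. Zfpm2 differed by -0.04 ± 0.13 and Bcl11b by 0.05 ± 0.15. Of the Nfe2 relatives, Nfe2l2, the factor of the oxidative stress response, differed by 0.26 ± 0.15 and Nfe2l3 by -0.22 ± 0.12. Nfe2l1 differed by -0.04 ± 0.13 and changed sign with cyclic loess and a second quantile normalization. Mybl2, a cell cycle factor, differed by 0.27 ± 0.15 and Mybl1 by -0.05 ± 0.15. Of these 15 relatives 0 passed the adjusted threshold in limma. At an unadjusted limma p under 0.05, 2 were higher and 1 lower, against 5.63% and 6.61% of all genes.

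**Figure D2:**
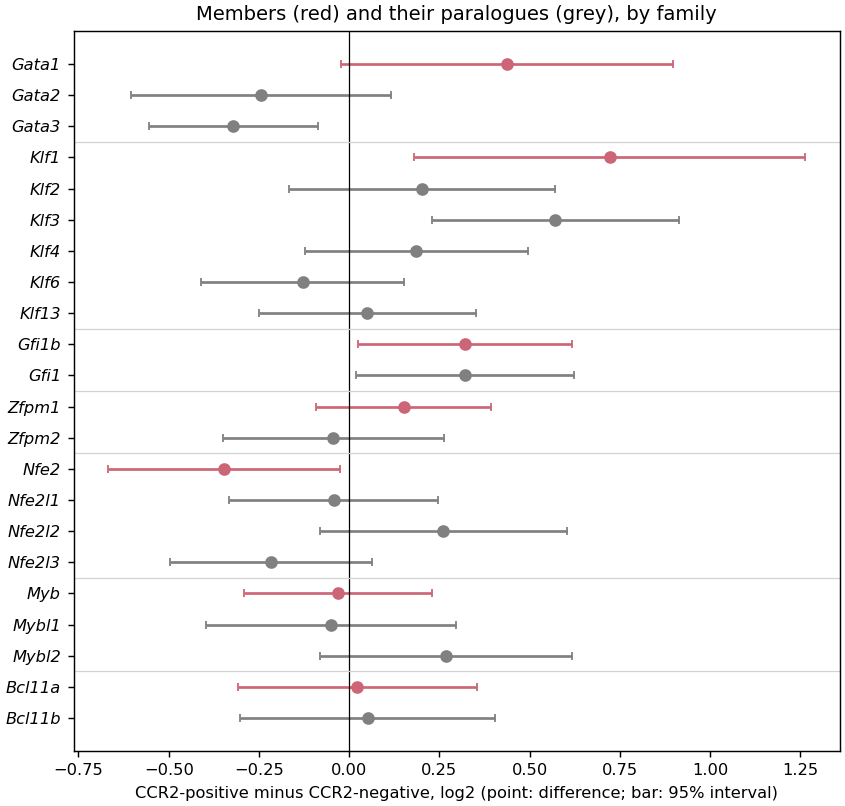
Difference between CCR2-positive and CCR2-negative means on the log2 scale (points) with its 95% limma interval (bars) for the 7 members in red and their 15 relatives in grey, grouped by family. Klf1, Klf3, Gfi1b and Gfi1 have intervals above 0 and Gata3 and Nfe2 have intervals below 0, before any adjustment for the number of genes.

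Pairs of factors were set against each other within each array as a balance, which cancels an amount added to all log2 values of an array. A second quantile normalization or cyclic loess can still change it. Gata1 and Spi1, and Klf1 and Fli1, oppose each other in fate choice. Gata1 replaces Gata2 as red cells form, and Gfi1b and Gfi1 are relatives that serve different lineages. The level of such a balance has no meaning, because it sets different probes side by side, but its shift between groups has. With 3 pools against 3 the smallest two-sided p of the exact permutation test is 0.1. Gata1 against Spi1, the driver of myeloid fates, was at 0.32, 0.61 and 0.55 in the CCR2-negative and 1.18, 1.60 and 0.98 in the CCR2-positive pools. The groups stood clear of each other, with a shift of 0.76 ± 0.21 towards Gata1 (exact permutation p = 0.1, 0.2 after adjustment over the 4 balances). Spi1 itself differed by -0.32 ± 0.11 and was lower in every CCR2-positive pool (limma adjusted p = 0.320).

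Klf1 against Fli1, a factor of megakaryocytes, was at -1.99, -0.59 and -0.78 in the CCR2-negative pools and at -0.35, 0.48 and -0.20 in the CCR2-positive ones. These groups also did not overlap, and the shift was 1.10 ± 0.51 towards Klf1 (exact permutation p = 0.1, adjusted 0.2). Without CCR2-negative replicate 1, the low point, the shift was 0.66. Fli1 differed by -0.37 ± 0.17 (limma adjusted p = 0.415) and was highest in that same pool, at 10.10. Of 8 measured megakaryocyte markers 5 were higher and 3 lower, while all 11 measured stem cell markers were lower. What the shift of Klf1 against Fli1 reflects was not tested. Gata1 against Gata2 shifted by 0.68 ± 0.43, and by 0.34 without CCR2-negative replicate 1, and its groups overlapped (exact permutation p = 0.3, adjusted 0.4). Gfi1b against Gfi1 shifted by 0.0003 ± 0.22 (exact permutation p = 1), since both were higher by the same amount, and its sign turned with a second quantile normalization (-0.0027).

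**Figure D3:**
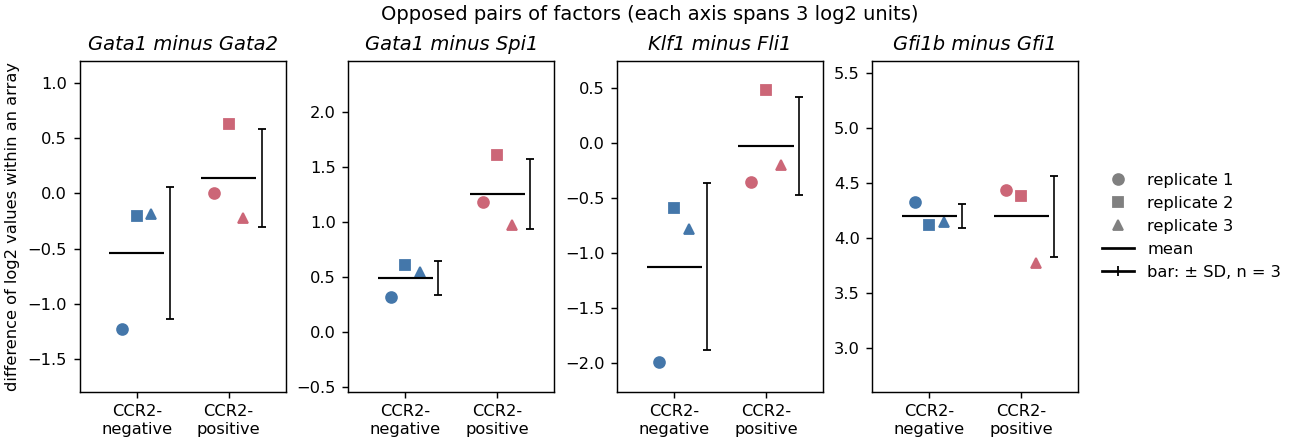
Difference of the log2 values of paired factors within each array, by pool, with the mean and the SD (n = 3) of each group. The CCR2-positive pools lie above the CCR2-negative ones for Gata1 against Spi1 and Klf1 against Fli1, and the groups overlap for the other pairs.

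Genes of red cell formation, many of them known targets of GATA1 and KLF1, were mostly higher in the CCR2-positive pools. Of 14 measured genes for receptors, iron and heme, 13 were higher, with a median difference of 0.31 against 0.03 over all genes. At an unadjusted limma p under 0.05 there were 6 higher and 1 lower, against 5.63% and 6.61% of all genes. After adjustment over all genes 0 passed. Epor, the erythropoietin receptor, stood at 7.48, 7.70 and 7.40 against 8.06, 8.29 and 7.75 in the CCR2-positive pools, with no overlap and a difference of 0.51 ± 0.15. Tfrc, the transferrin receptor, differed by 0.65 ± 0.20, and the heme synthesis enzymes Cpox and Alad by 0.60 ± 0.19 and 0.48 ± 0.14. Slc25a38, which carries glycine into mitochondria for heme, differed by 0.46 ± 0.11, and the iron exporter Slc40a1 by 0.48 ± 0.18. The adjusted limma p-values of these 6 lay between 0.183 and 0.334. Slc25a37, which brings iron into mitochondria, was the 1 gene of the list that was lower, by -0.33 ± 0.13 (limma adjusted p = 0.357).

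Of 21 measured genes of the red cell surface and skeleton 19 were higher, with a median of 0.29. There were 12 higher and 1 lower at an unadjusted limma p under 0.05, against 5.63% and 6.61% of all genes. After adjustment 0 passed. The 2 lower genes of the list were Slc2a1, by -0.34 ± 0.15 without overlap (limma adjusted p = 0.407), and Gypc, by -0.06 ± 0.18. Rhag, a membrane protein of the Rh complex, ranged from 6.90 in CCR2-negative replicate 1 to 8.06 in CCR2-negative replicate 3 and stood at 8.57, 9.28 and 8.37 in the CCR2-positive ones, in the same order of pools as Klf1 at both ends. Its difference was 1.09 ± 0.33, or 0.71 without CCR2-negative replicate 1. Rhd, the other Rh protein, differed by 0.80 ± 0.25, Tspo2, a gene of late red cell precursors, by 0.92 ± 0.28, the water channel Aqp1 by 0.78 ± 0.15, the skeleton anchor Ank1 by 0.74 ± 0.22 and Cldn13, a claudin gene of erythroblasts, by 0.65 ± 0.21. Their adjusted limma p-values were 0.177 to 0.282. The count of genes higher at an unadjusted p under 0.05 was 7 when CCR2-negative replicate 1 was left out, and also 7 when CCR2-positive replicate 2 was. GATA words stood in 16 of the 36 promoter windows of the red cell genes of both lists (44.4%, against 26.5% of all windows). CACCC-type words stood in 15 of them (41.7%, against 27.4%). The 36 windows belong to 27 genes, some with several and partly overlapping windows, and include Alas2 and Epb41, which were not measured. Many of the listed genes are known targets of GATA1 and KLF1, so these shares are a description and no test.

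Of 8 measured targets that serve megakaryocytes, 5 were higher and 3 lower, with a median of 0.10, and 0 passed after adjustment in limma. At an unadjusted limma p under 0.05 there were 0 higher and 2 lower, against 5.63% and 6.61% of all genes. Single pools moved these values: the median was 0.27 without CCR2-negative replicate 1 and 0.23 when CCR2-positive replicate 2 was dropped, each with 2 higher and 1 lower at that p. It was -0.04 without CCR2-positive replicate 3 and 0.0013 without CCR2-negative replicate 3. Tbxas1, the thromboxane synthase that NFE2 is known to activate, was lower without overlap, at 8.77, 8.54 and 8.56 against 8.08, 7.40 and 8.13 (difference -0.75 ± 0.19, limma adjusted p = 0.221). CCR2-positive replicate 2 was the low point of Tbxas1 as of Nfe2. Gp9, a platelet receptor subunit, was lower by -0.52 ± 0.20 (limma adjusted p = 0.357), and by -0.27 without CCR2-negative replicate 1. Pf4 and Ppbp, chemokines of platelets, differed by 0.35 ± 0.16 and 0.80 ± 0.36, and Tubb1, the platelet tubulin that also needs NFE2, by 0.47 ± 0.33. Ppbp and Tubb1 were high in CCR2-positive replicate 3, at 7.51 and 5.91, against highest values of 6.19 and 4.58 elsewhere.

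The genes listed as partners and corepressors of the members were mixed. Of 25 partner and corepressor genes 10 were higher and 15 lower, with a median of -0.04 that turned to 0.0047 with a second quantile normalization. At an unadjusted limma p under 0.05 there were 0 higher and 2 lower, against 5.63% and 6.61% of all genes. After adjustment 0 passed. Lmo2, the bridge of the complex of GATA1 and TAL1, was lower without overlap, at 8.90, 8.82 and 8.81 against 8.61, 8.44 and 8.14 (difference -0.45 ± 0.13, limma adjusted p = 0.261). Lyl1, the relative of Tal1, differed by -0.40 ± 0.15 (limma adjusted p = 0.334), and the acetyltransferases Ep300 and Crebbp by -0.26 ± 0.12 and -0.29 ± 0.13. The cofactor Ssbp2 and the repressor Bach1, which competes with NFE2 for small MAF proteins, differed by -0.33 ± 0.16 and -0.40 ± 0.20. Of the higher genes, Tcf3, Tal1 and Ldb1 had the largest differences, at 0.32 ± 0.17, 0.22 ± 0.13 and 0.14 ± 0.13. The small MAF genes Mafg, Mafk and Maff differed by 0.01 ± 0.14, 0.13 ± 0.14 and -0.01 ± 0.11, and Mafg turned to -0.014 with median centring.

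Of 15 other regulators of red cell formation 9 were higher and 6 lower (median 0.13). At an unadjusted limma p under 0.05, where 5.63% of all genes were higher and 6.61% lower, 2 were higher and 1 lower. After adjustment 0 passed. E2f4 and E2f2, cell cycle factors that red cell precursors need, differed by 0.36 ± 0.14 and 0.30 ± 0.14, and Nfia by 0.29 ± 0.16. Lmna, the lamin A gene, differed by 0.38 ± 0.12, Foxo3, a factor of maturing red cells and of resting stem cells, by -0.28 ± 0.11 and the kinase gene Jak2 by -0.25 ± 0.14. Of 14 factors of other lineages 10 were higher and 4 lower, with a median of 0.08. Of these, 1 was higher and 2 lower at an unadjusted limma p under 0.05, against the same shares of all genes. After adjustment 0 passed. Beside Spi1, Fli1 and Gfi1, given above, Erg, a stem cell and megakaryocyte factor, differed by -0.67 ± 0.27, Pax5 of B cells by 0.24 ± 0.13 and Ebf1 of B cells by 0.25 ± 0.14.

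**Figure D4:**
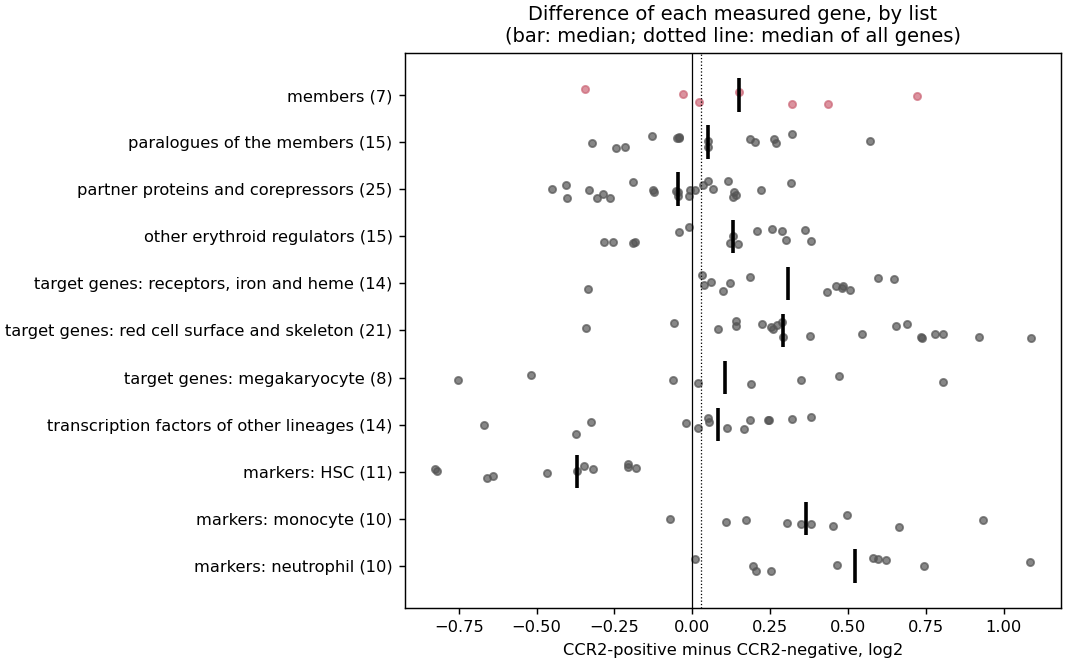
Difference between CCR2-positive and CCR2-negative means on the log2 scale for every measured gene of 11 lists (points), with the number measured in brackets, the median of each list as a bar and that of all genes as a dotted line. The members spread from -0.35 to 0.72, and the red cell target lists have medians of 0.31 and 0.29. The monocyte and neutrophil markers have medians of 0.37 and 0.52, and the stem cell markers all lie below 0.

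Markers of other cells differed between the pools as well, and their part in the values of the members was not tested. All 11 measured stem cell markers were lower (median -0.37), Procr among them at -0.37 ± 0.13. At an unadjusted limma p under 0.05, where 6.61% of all genes were lower, 7 of these markers were, and 0 passed after adjustment. Their mean level was 7.67 to 8.01 in the CCR2-negative and 7.19 to 7.45 in the CCR2-positive pools, with the high point in CCR2-negative replicate 1 and the low point in CCR2-positive replicate 2, the reverse of Gata1 and Klf1. All 6 measured erythroid precursor markers were higher, with mean levels of 6.45 to 6.81 and 7.02 to 7.31. In a pool a larger share of erythroid cells and more of the transcript per cell cannot be told apart.

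Of 10 monocyte markers 9 were higher, at mean levels of 5.40 to 5.55 in the CCR2-negative and 5.75 to 5.95 in the CCR2-positive pools, and Csf1r differed by 0.35 ± 0.13. Their median difference was 0.37, against 0.03 over all genes. At an unadjusted limma p under 0.05, 5 were higher and 0 lower, against 5.63% and 6.61% of all genes, and 0 passed after adjustment. All 10 neutrophil markers were higher in the mean (Ltf turned to between -0.065 and -0.014 under the 3 other scalings), at 5.41 to 6.05 against 5.71 to 6.82. Their median difference was 0.52, with 4 higher and 0 lower at the same unadjusted p and 0 after adjustment. The medians of both lists were above the 0.31 and 0.29 of the red cell lists. S100a8 ranged from 5.13 to 9.61 over the pools, lowest in CCR2-negative replicate 1 and highest in CCR2-positive replicate 2. Of 8 megakaryocyte markers 5 were higher, with mean levels of 7.06 to 7.48 and 7.12 to 7.68. Markers of B cells (6 of 7 higher, means 5.01 to 5.07 and 5.02 to 5.26), of T and NK cells (6 of 8 higher, means 5.06 to 5.16 and 5.12 to 5.33) and of basophils and mast cells (6 of 8 higher, means 4.94 to 5.05 and 4.73 to 5.61) overlapped between the groups. Cd79a and Cd3e, which define B and T cells, stood at 4.53 to 4.98 and 4.76 to 5.11, and Cpa3 of mast cells at 4.68 to 5.78.

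Mcpt8, a mast cell protease gene that marks mouse basophils, was singled out after its values were seen, because its difference of 1.71 ± 0.70 was the largest positive one of all 22180 genes (limma adjusted p = 0.375). It stood at 5.89, 6.41 and 6.36 in the CCR2-negative pools and at 5.96, 8.76 and 9.09 in the CCR2-positive ones. CCR2-positive replicate 1 thus lay within the CCR2-negative span, and the other two lay far above it. Prss34, another basophil protease gene, differed by 0.50 ± 0.36 with its highest value, 7.80, in CCR2-positive replicate 2, and Gzmb, the granzyme B gene, by 0.29 ± 0.12 without overlap. Of the 8 genes of this list 2, Mcpt8 and Gzmb, were higher at an unadjusted limma p under 0.05 (5.63% of all genes were), and 0 passed after adjustment. In the mean 6 of the 8 were higher and 2 lower, Cpa3 by -0.34 ± 0.24 and Tpsb2 by -0.03 ± 0.12. The mean level of the list was lowest in CCR2-positive replicate 1 and highest in CCR2-positive replicate 3, where Gata1 and Klf1 were lowest of their group. The means of the megakaryocyte, B cell, and T and NK cell markers also peaked in CCR2-positive replicate 3, and that of the monocyte markers in CCR2-positive replicate 1.

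The genes most like the members in their pattern were sought among 2756 genes with an SD of at least 0.3 over the 6 arrays, by Pearson's r to the mean of the 7 members. That mean was -0.17, -0.03 and -0.08 from its average in the CCR2-negative and 0.10, 0.23 and -0.05 in the CCR2-positive pools. The 5 nearest were Hs6st1, a heparan sulfate enzyme gene (r = 0.994), Ly6a2 (r = 0.990), Arhgef25 (r = 0.988), Golm1, a Golgi protein gene (r = 0.983), and Ccr2 itself (r = 0.980). The 6 arrays share a group difference, and 80 of the 2756 genes had an r of at least 0.9. Ccr2 stood at 5.63, 6.26 and 5.83 in the CCR2-negative and 6.81, 7.10 and 6.18 in the CCR2-positive pools, a difference of 0.79 ± 0.24 (limma adjusted p = 0.274). Its order within each group was that of Gata1 and Klf1, with CCR2-negative replicate 1 lowest and CCR2-positive replicate 2 highest. For Ccr2 the pool labelled CCR2-positive replicate 3 lay below CCR2-negative replicate 2. The neutrophil marker means had the same order, at 5.41, 6.05 and 5.73 in the CCR2-negative and 6.08, 6.82 and 5.71 in the CCR2-positive pools. This order is thus not particular to Ccr2 and the members. Of the members, Gata1 (r = 0.965) and Klf1 (r = 0.903) lay closest to their common mean, which they helped to make, and Nfe2 ran against it (r = -0.888).

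Array medians lay between 5.48 and 5.58. CCR2-positive replicate 3 had the lowest correlation with the other arrays of its own group (mean r = 0.968 across probe sets, against 0.970 to 0.981 for the rest). CCR2-positive replicates 1 and 2 correlated slightly more with the CCR2-negative arrays than with their own group. Their mean r was 0.9724 and 0.9719 with the CCR2-negative arrays, against 0.9717 and 0.9701 within the group. The other arrays correlated more with their own group.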

How the data were processed

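The authors deposited log2 values of 41345 probe sets on 6 arrays, made with RMA per the submitters' processing notes; the sources used here give no version, settings or detection calls, so signal over background is unknown and the number of arrays limits the precision. Of the probe sets 23521 had 1 gene in the platform annotation, and the one with the highest mean stood for a gene, which left 22180 genes. The groups were compared by lmFit and eBayes of limma 3.58.1 (R 4.3.3) without covariates, with Benjamini-Hochberg adjustment over all genes and a threshold of 0.05. The fit was tested on simulated data. Balances were tested with exact two-sided permutation of the samples.

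The members and all gene lists were chosen with earlier results of these data known. Their counts, and the balances of genes from these lists, are therefore descriptions. Of 183 listed symbols 171 were measured. All members, relatives and genes of the balances were named, with up to 6 genes of other lists by smallest p and defining markers. Other genes were named where a sentence says what singled them out. Mafg, Mafk and Maff were named for their link to NFE2 and Ltf for its change of sign. Slc25a37, Slc2a1, Gypc and Tpsb2 were named as lower genes of their lists, and Tcf3, Tal1 and Ldb1 as higher genes of theirs. Mcpt8, Prss34 and Gzmb were named after their values were seen. The median standard error of a difference was 0.13. The labels do not say if pools of both groups shared mice. Promoters came from RefSeq, GRCm38.p6. Alternatives were filters on dim genes, scalings, the replicate block, variance settings, array weights, the summary of probe sets and each pool left out.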

Additional observations from a re-analysis of the deposited data

How the results depend on the processing

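No member passed an adjusted p of 0.05 under any alternative run, and the count over all genes was 0 under every alternative with all pools and 0 to 2 as each pool was left out (2 without CCR2-positive replicate 1). The median of the members was 0.13 (median centring) to 0.21 (second quantile normalization) with all pools and 0.09 to 0.22 with 1 left out. The differences of Klf1, Gata1, Gfi1b, Zfpm1 and Nfe2 kept their direction under all alternatives run. That of Bcl11a turned to -0.0015 with median centring and lay between -0.10 and 0.15 with a pool left out, below 0 when either group's replicate 2 was the one left out. That of Myb lay between -0.11 and 0.050, above 0 without CCR2-positive replicate 3. The shift of Gfi1b against Gfi1, near 0 to begin with, turned to -0.0027 with a second quantile normalization and lay between -0.12 and 0.21 with a pool left out; the other balances kept their direction, at 0.34 to 0.86 for Gata1 and Gata2, 0.59 to 0.90 for Gata1 and Spi1, and 0.66 to 1.36 for Klf1 and Fli1. The cause of these turns was not tested.

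Members at an unadjusted p under 0.05 numbered 0 without CCR2-positive replicate 2 and at most 3 higher and 1 lower without any other pool. With all pools 5.63% of all genes were higher and 6.61% lower at this p. The shares of all genes with a pool left out are not given here. For the neutrophil markers the count of higher genes at this p was 4 with all pools. It fell to 2 without CCR2-positive replicate 2 or any 1 CCR2-negative pool. With a pool left out the counts were 1 to 3 higher for the relatives, 1 to 4 lower for the partners, 1 to 3 higher and 0 to 2 lower for the other regulators, 0 to 3 higher and 1 to 3 lower for the factors of other lineages, and 0 to 2 higher and 1 to 2 lower for the megakaryocyte targets. The deviations of same-numbered pools had r of 0.03, 0.09 and 0.04 over genes, against -0.10 to 0.07 between pools of different number. Each same-number r was under the 0.1 asked of a pairing, so the block was not used for the values above. That bound is no test, and the labels do not say whether numbers mark a shared source, so a pairing is neither shown nor excluded. With the replicate block Klf1 had an unadjusted limma p of 0.00399 (adjusted 0.205), Gata1 of 0.0347, and Nfe2 of 0.0615, and 0 genes passed the adjusted threshold.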
